A study of Homo sapiens with 2 samples.

Results

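The miR-125 family was followed in small RNA libraries made from the exosomes (small secreted vesicles) of 2 human liver cancer cell lines. Its members were every mature miRNA of the count table whose name, without arm and hairpin copy number, was miR-125a or miR-125b. There were 5 of them among 793 named miRNAs: hsa-miR-125a-5p, hsa-miR-125a-3p, hsa-miR-125b-5p, hsa-miR-125b-1-3p and hsa-miR-125b-2-3p, written below without the species prefix. Vesicles came from MHCC97H, a hepatocellular carcinoma line selected for strong metastatic spread, and were compared with vesicles from HepG2, a line to which the labels give the same tumor type. Neither line carried a labelled treatment, both grew in medium with exosome-free serum, and each line gave 1 library. The question is how the vesicles of the lines differ in miRNA cargo. With 1 library per line there was no replicate check and no test between lines, and cell line, culture and library cannot be told apart.

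The miR-125 family is the vertebrate counterpart of lin-4 of Caenorhabditis elegans, the founding miRNA, which times larval development. Each hairpin is cut into a 5p and a 3p strand. An Argonaute protein keeps one strand as the guide that represses mRNAs through its seed, and the other strand, the passenger, is usually degraded. The 5p strand is the usual guide of this family, and repression of LIN28 mRNA has been described for it. In mammals the miR-125 hairpins sit in clusters with members of the miR-99/100 and let-7 families.

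The mature sequences are shown to compare the seeds of the guide and passenger strands. They are RefSeq sequences (GRCh38.p14), written 5′ to 3′, with the seed (bases 2 to 8) in capitals.

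hsa-miR-125a-5p: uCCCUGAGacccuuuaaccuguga

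hsa-miR-125b-5p: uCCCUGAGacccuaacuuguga

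hsa-miR-125a-3p: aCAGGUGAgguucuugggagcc

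hsa-miR-125b-1-3p: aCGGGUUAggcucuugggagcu

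hsa-miR-125b-2-3p: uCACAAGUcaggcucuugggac

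Both 5p strands shared 1 seed, and their first 13 bases were identical. No other miRNA of the table with a RefSeq sequence (704 of 793 names matched) had this seed. The 3p strands had 3 different seeds, none of which occurred elsewhere among the matched names. They had a run of 8 bases near their 3′ ends in common, UCUUGGGA. By edit distance the nearest sequence in the table to each member was another member. miR-125a-5p and miR-125b-5p were 3 edits apart, miR-125a-3p and miR-125b-1-3p 4 edits, and miR-125b-2-3p was 7 edits from each of the other 3p strands. The mismatch setting of the authors' alignment is not given in the sources used here.

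Both strands are marked in capitals in the RefSeq hairpins of MIR125A and MIR125B1, the 5p strand first, because the results below turn on the balance of strands from 1 hairpin.

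MIR125A: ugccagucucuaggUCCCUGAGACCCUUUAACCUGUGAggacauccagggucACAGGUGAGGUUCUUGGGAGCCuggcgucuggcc

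MIR125B1: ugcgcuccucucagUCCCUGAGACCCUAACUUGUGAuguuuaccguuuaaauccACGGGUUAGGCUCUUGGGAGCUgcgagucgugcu

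In GENCODE release 29 (GRCh38), MIR125A lies on chromosome 19 (51693254 to 51693339, plus strand) in an intron of SPACA6. MIR99B and MIRLET7E lie in the same gene, 572 and 389 bp away. MIR125B1 lies on chromosome 11 (122099757 to 122099844, minus strand) in an intron of MIR100HG, a long noncoding host gene that also holds MIRLET7A2 (46677 bp away) and MIR100 (52384 bp away). MIR125B2 lies on chromosome 21 (16590237 to 16590325, plus strand) in an intron of MIR99AHG, with MIRLET7C (50325 bp away) and MIR99A (51067 bp away). miR-125b-5p is the same molecule from both of its hairpins, so its reads cannot be assigned to chromosome 11 or 21, whereas miR-125b-1-3p and miR-125b-2-3p each come from 1 of them.

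Reads assigned to miRNAs numbered 304457 in MHCC97H and 22831 in HepG2. Levels are given in CPM, that is, scaled to a common total of miRNA reads, on which 1 read weighs 3.28 in MHCC97H and 43.8 in HepG2. Where a fold is given against a HepG2 count of 0, that count was set to a floor of 3 reads, or 131 CPM. The exact interval of such a 0 reaches 162 CPM, so the lower end given beside each fold is the bound. Intervals are 95% exact (Clopper-Pearson) intervals and, like these floors, cover counting error only, since the reads carry no molecular identifiers. Of 5 liver miRNAs used to check the labels, 4 were detected in MHCC97H and all 5 in HepG2, and miR-885-5p was the one at 0 in MHCC97H. They summed to 30661 CPM in MHCC97H and 158162 CPM in HepG2, with 4 of the 5 called higher in HepG2, the direction opposite to that of the miR-125 family. Most of each sum was miR-148a-3p (26976 CPM in MHCC97H and 142438 CPM in HepG2). miR-122-5p was not called, at 979 CPM in MHCC97H and 1051 CPM in HepG2 (ratio 0.931, 0.614 to 1.48). Marker miRNAs of non-liver cells were found in each library. The 5 mesenchymal miRNAs, a group of interest because miR-125b is abundant in such cells, were all detected in both. They summed to 21353 CPM in MHCC97H and 26017 CPM in HepG2, most of it miR-143-3p (18167 and 20849 CPM). None was called higher in MHCC97H and 2, miR-145-5p and miR-199b-5p, were called higher in HepG2. The 3 muscle miRNAs summed to 5285 CPM in MHCC97H and 394 CPM in HepG2, where miR-206 and miR-133a-3p were at 0. Of these, miR-1-3p and miR-206 were called higher in MHCC97H, as the miR-125 family was, and miR-133a-3p was not called. Their part in the result was not tested. The 3 red cell miRNAs summed to 11463 and 24528 CPM in MHCC97H and HepG2. The 4 leukocyte miRNAs summed to 2204 and 5168 CPM, and both endothelial miRNAs to 6507 and 7227 CPM. In each of these lists 1 miRNA was called higher in HepG2 and none in MHCC97H. They were miR-451a (2716 CPM in MHCC97H, 20104 CPM in HepG2), miR-142-3p and miR-126-5p. The other red cell miRNAs had ratios above 1, miR-486-5p at 1.98 (1.61 to 2.45) and miR-144-3p at 1.98 (0.827 to 6.20). miR-126-3p had a ratio of 1.04 (0.872 to 1.24).

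MHCC97H exosomes carried more of every miR-125 strand than HepG2 exosomes, and the miR-125b 3p strands had the largest ratios. The family took 0.644% of miRNA reads in MHCC97H (0.616 to 0.673%) and 0.0876% in HepG2 (0.0535 to 0.135%), which is 1960 reads against 20. The summed level was thus 7.35-fold higher in MHCC97H (4.75 to 12.1). Taken apart, the 5p strands summed to 778 reads in MHCC97H against 19 in HepG2, a 3.07-fold difference (1.95 to 5.13). The 3p strands, 3 in number, summed to 1182 reads in MHCC97H against 1 in HepG2, an 88.6-fold difference (15.9 to 3504). At the MHCC97H share, the HepG2 library would have held 88.6 reads of the 3p strands.

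**Figure D1:**
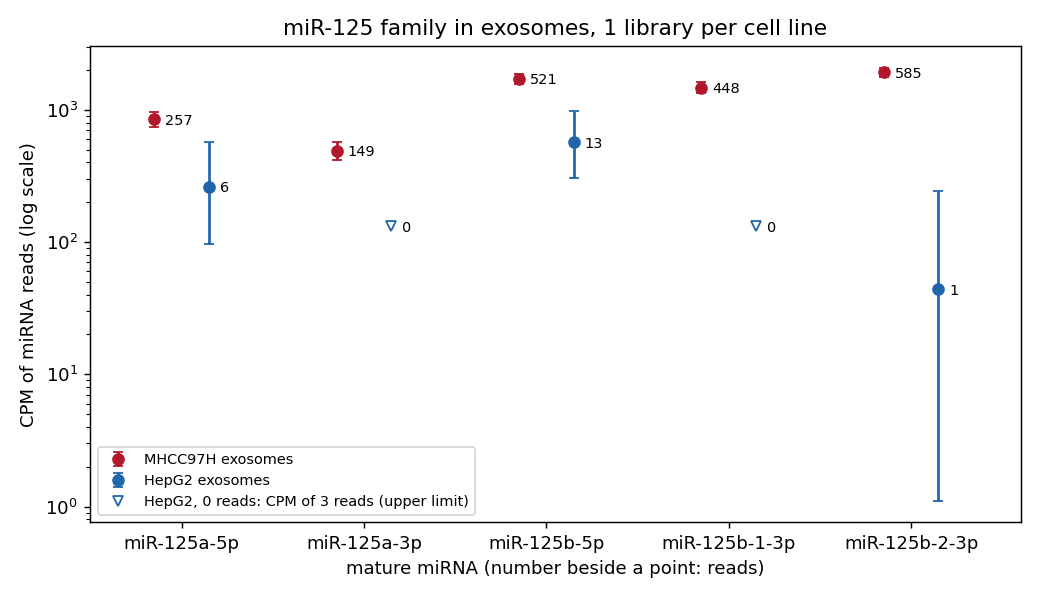
Level of each family member in CPM (log axis) in MHCC97H exosomes (left of each pair) and HepG2 exosomes (right), with 95% exact intervals and the read count beside each point; open triangles mark 0 reads, drawn at the CPM of 3 reads. The MHCC97H points lie between 489 and 1921 CPM and each lies above its HepG2 point or limit.

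Of the guide strands, miR-125b-5p had 521 reads (1711 CPM, interval 1568 to 1865) in MHCC97H and 13 reads (569 CPM, 303 to 973) in HepG2. It was 3.01-fold higher in MHCC97H (1.74 to 5.68). miR-125a-5p had 257 reads (844 CPM, 744 to 954) in MHCC97H and 6 reads (263 CPM, 96.4 to 572) in HepG2. It was 3.21-fold higher in MHCC97H (1.46 to 8.83). Both guides thus differed by about the same factor. Within a library, there were 0.493 reads of miR-125a-5p per read of miR-125b-5p in MHCC97H (0.423 to 0.574) and 0.462 in HepG2 (0.144 to 1.302). The ratio of these ratios, which does not depend on how the libraries are scaled, was 1.07, and its interval of 0.374 to 3.47 leaves room for a difference of more than 2-fold either way.

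Among the 3p strands, miR-125b-2-3p from chromosome 21 had 585 reads (1921 CPM, 1769 to 2083) in MHCC97H and 1 read (43.8 CPM, 1.11 to 244) in HepG2. Its ratio was 43.9 with a counting interval of 7.84 to 1736. miR-125b-1-3p from chromosome 11 had 448 reads (1471 CPM, 1338 to 1614) in MHCC97H and none in HepG2. It was 11.2-fold higher in MHCC97H when HepG2 is set to 3 reads (lower end of the exact interval 9.07). miR-125a-3p had 149 reads (489 CPM, 414 to 575) in MHCC97H and none in HepG2, a difference of 3.72-fold against 3 HepG2 reads (lower end 2.99). Equal shares would have given HepG2 43.9 reads of miR-125b-2-3p, 33.6 of miR-125b-1-3p and 11.2 of miR-125a-3p.

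A miRNA was called when its CPM, with 1 CPM added in each library, differed by at least 2-fold and the interval of the plain ratio excluded 1. All 5 members passed the filter of 10 CPM in at least 1 library, and all 5 were called higher in MHCC97H. Of the 543 miRNAs that passed, 20.4% were called higher in MHCC97H and 9.02% higher in HepG2. Of the 117 with 10 or more reads in each library, where miR-125b-5p was the only member, 34.2% were called higher in MHCC97H. Among the 228 names with a 3p suffix the share called higher in MHCC97H was 21.5%, and among the 223 with a 5p suffix it was 22.0%. Of the 181 that had no HepG2 read, as miR-125a-3p and miR-125b-1-3p did, 19.9% were called higher in MHCC97H. For these the call depended on the MHCC97H count alone, with 51 reads (miR-100-3p) too few and 52 (miR-219a-1-3p) enough. The 19.9% is thus no contrast for miR-125a-3p and miR-125b-1-3p, at 149 and 448 MHCC97H reads. By the 2-fold size alone, 51.7% were higher in MHCC97H, all 5 members among them, and 25.2% in HepG2. Every one of the 181 miRNAs with no HepG2 read passes this size, because 1 CPM stands for the zero. That fixed the outcome for miR-125a-3p and miR-125b-1-3p. The median log2 ratio of MHCC97H over HepG2, with 1 CPM added, was 5.42 over the 5 members and 1.12 over all 543. The member value is that of miR-125b-2-3p and rests on its 1 HepG2 read. With zero counts set to 3 reads the medians were 1.90 and -0.74, where a miRNA with no HepG2 read and a low MHCC97H level is placed on the HepG2 side by that setting alone.

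The 2 guides stood less clear of the general shift between the libraries. The 137 miRNAs averaging 500 CPM or more had a median log2 ratio of 0.99, against 1.68 for miR-125a-5p and 1.59 for miR-125b-5p. After median centring on those miRNAs, miR-125a-5p was 1.61-fold higher in MHCC97H (0.731 to 4.44) and miR-125b-5p 1.51-fold (0.875 to 2.86), and neither was called. Both miR-125b 3p strands were called after the same centring, with lower ends of 4.56 for miR-125b-1-3p and 3.94 for miR-125b-2-3p. miR-125a-3p was then 1.87-fold higher against 3 HepG2 reads (lower end 1.503), so it passed the 2-fold size only with 1 CPM in place of its HepG2 zero. In this setting 11.99% of 517 miRNAs were called higher in MHCC97H.

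**Figure D2:**
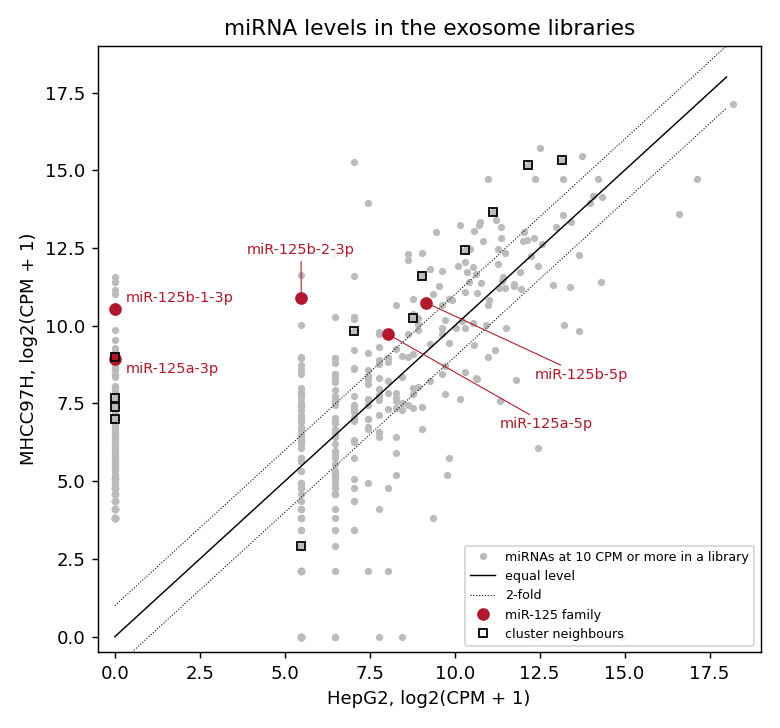
Level of each of 543 miRNAs as log2(CPM + 1) in MHCC97H exosomes (vertical) against HepG2 exosomes (horizontal), with the miR-125 family in red and miRNAs of the same genomic clusters as squares. The 5p members lie just above the dotted 2-fold line. miR-125a-3p and miR-125b-1-3p, with no HepG2 read, lie at the left edge, and miR-125b-2-3p, with 1 HepG2 read, lies to their right.

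The order of the members by read count also differed, though several steps of it were within counting error. In MHCC97H, miR-125b-2-3p came first at 1921 CPM (rank 82 of all miRNAs), ahead of miR-125b-5p at 1711 CPM (rank 87), but these neighbours did not differ beyond counting error (1.12-fold, 0.996 to 1.27). miR-125b-5p exceeded miR-125b-1-3p (rank 93) by 1.16-fold (1.02 to 1.32). miR-125b-1-3p exceeded miR-125a-5p (rank 119) by 1.74-fold (1.49 to 2.04), which exceeded miR-125a-3p (rank 145) by 1.72-fold (1.40 to 2.13). In HepG2, miR-125b-5p (rank 104) and miR-125a-5p (rank 140) had the most reads. On 13 and 6 reads their ratio of 2.17 had an interval of 0.768 to 6.95. miR-125a-5p over miR-125b-2-3p, on 6 and 1 reads, gave a ratio of 6 (0.728 to 276), so neither step of the order is settled at this depth. As shares of the family's reads, miR-125b-5p made up 26.6% in MHCC97H (24.6 to 28.6%) and 65.0% in HepG2 (40.8 to 84.6%). miR-125b-2-3p made up 29.8% in MHCC97H (27.8 to 31.9%) and 5.00% in HepG2 (0.127 to 24.9%).

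For miR-125b, the usual passenger strands outnumbered the guide in MHCC97H exosomes when each strand was counted once. Its 5p strand held 521 of 1554 miR-125b reads in MHCC97H, or 33.5% (31.2 to 35.9%), and 13 of 14 in HepG2, or 92.9% (66.1 to 99.8%). The odds of a miR-125b read being 5p in MHCC97H were 0.0389 times those in HepG2, with an exact interval of 0.000912 to 0.260. This comparison is made within libraries and does not depend on scaling. It does depend on how the 5p strand is counted, because the table lists miR-125b-5p in 2 entries, of 521 and 511 reads in MHCC97H and 13 reads each in HepG2. If these were separate reads and not the same reads listed for both hairpins, the 5p share would be 49.98% in MHCC97H (47.8 to 52.2%) and 96.3% in HepG2 (81.0 to 99.9%), and the odds ratio 0.0385 (0.000936 to 0.235).

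For miR-125a, with 1 hairpin and 1 entry per strand, the 5p strand held 257 of 406 reads in MHCC97H, or 63.3% (58.4 to 68.0%), and all 6 reads in HepG2 (54.1 to 100%). The interval of the odds ratio reached 1.49, so a difference in strand balance of miR-125a was not detectable at 6 HepG2 reads. Between the miR-125b hairpins, miR-125b-1-3p made up 43.4% of 1033 3p reads in MHCC97H (40.3 to 46.5%). HepG2 held 1 such read, from miR-125b-2-3p, and its share for chromosome 11 has an interval of 0 to 97.5%.

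Strand balance was compared in the same way over other miRNAs. Of 91 miRNAs that had both strands in the table and 10 or more reads in each library, 24.2% had a lower 5p share in MHCC97H and 9.89% a higher one, with intervals of the odds ratio that excluded 1. The median difference in 5p share was -0.723 percentage points, and 62 of the 91 lay within 10 points. miR-125b had the largest drop of the 91, at -59.3 points, on 14 HepG2 reads. It was followed by miR-16 at -55.1 points, with 44.3% 5p reads in MHCC97H and 99.4% in HepG2, and by miR-181a at -47.9, miR-135b at -45.6 and miR-361 at -44.5 points. With repeated entries summed the drop of miR-125b was -46.3 points, next to -45.6 for miR-135b and -44.5 for miR-361. These others were named after their values were seen. For miRNAs whose main strand is 3p, a gain of the other strand counts as a higher 5p share. Taking instead the less abundant strand of each of the 91, by its mean share over both libraries, 26.4% had a higher share of it in MHCC97H and 7.69% a lower one. miR-125b is thus among a minority of miRNAs that shifted this way, and a shift particular to it is not shown. Among all 156 miRNAs with both strands and at least 1 read in each library, 14.7% had a lower and 7.05% a higher 5p share.

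**Figure D3:**
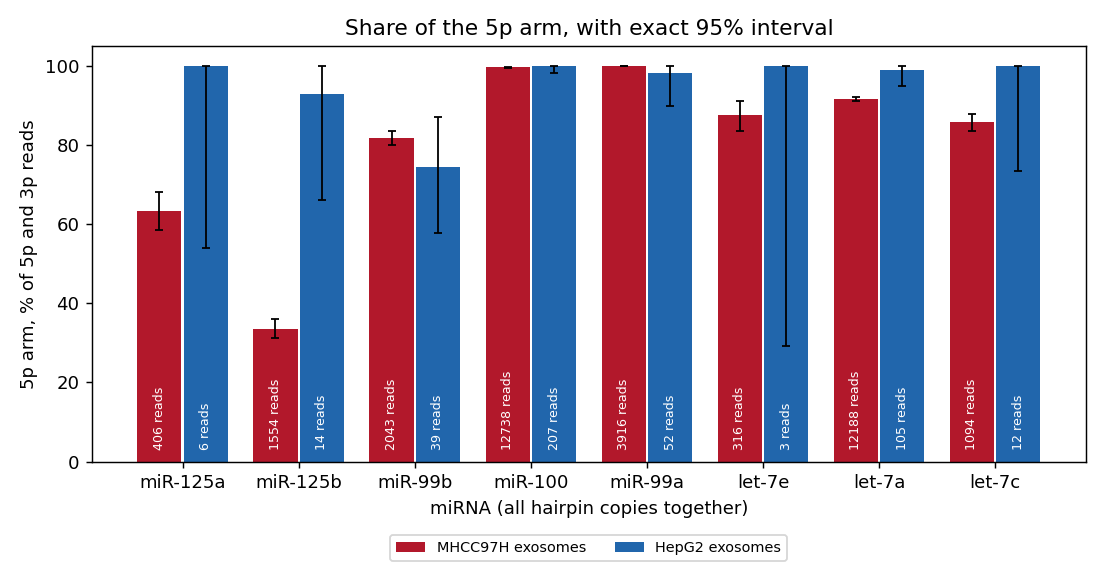
Share of the 5p strand among 5p and 3p reads (percent) for the miR-125 family and the miRNAs of the same clusters in MHCC97H exosomes (left bar) and HepG2 exosomes (right bar), with 95% exact intervals and the reads behind each bar. miR-125b stands at 33.5% in MHCC97H and 92.9% in HepG2, while miR-100 and miR-99a are above 98% in both.

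Most cluster neighbours were also called higher in MHCC97H. Of the 12 neighbouring mature miRNAs, 9 were called higher in MHCC97H, none in HepG2, and 3 were not called, beside 20.4% of all miRNAs called higher in MHCC97H (22.0% of 5p and 21.5% of 3p names). The 20.4% includes low-count miRNAs that could not reach a call. With 10 or more reads in each library, 6 neighbours could enter and all 6 were called, beside 34.2% of 117 miRNAs. With either median centring or a total without the 10 most abundant miRNAs of each library, 7 were called. Over all miRNAs, 11.99% of 517 were called higher in MHCC97H with centring and 11.52% of 625 with that reduced total. With centring, let-7c-3p was 1.95-fold higher against 3 HepG2 reads, so it passed the 2-fold size only with 1 CPM in place of its HepG2 zero. All 6 of the 5p strands were called, with ratios from 4.32 for miR-99b-5p to 8.05 for let-7a-5p. The let-7a-5p molecule also arises from hairpins on other chromosomes. Of the 6 3p strands, 3 were called. miR-99b-3p was 2.80-fold higher in MHCC97H (1.504 to 5.88). Against 3 HepG2 reads, let-7c-3p (155 reads in MHCC97H, 0 in HepG2) was 3.87-fold higher (lower end 3.11), and let-7a-2-3p (62 reads in MHCC97H, 0 in HepG2) 1.55-fold (lower end 1.22). The last lies under 2-fold against the 3-read floor and turned below 1 under both scalings just named. miR-99b-3p lost its call under both, at 1.41-fold (0.756 to 2.96) with centring and 1.76-fold (0.949 to 3.71) with the reduced total. let-7e-3p had 39 reads in MHCC97H and miR-100-3p 51, with none in HepG2, and miR-99a-3p had 2 reads in MHCC97H and 1 in HepG2.

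The strand balance of the neighbours is given beside that of miR-125b, with no test of the difference between them. miR-100, from the same host gene as miR-125b-1, had 99.6% 5p reads in MHCC97H (99.5 to 99.7%) and 100% in HepG2 (98.2 to 100%). The interval of its odds ratio, 0 to 4.64, included both 1 and the value of miR-125b. miR-99a, from the same host gene as miR-125b-2, had 99.9% in MHCC97H and 98.1% in HepG2, on 3916 and 52 reads. Its odds ratio had an interval of 0.638 to 743, which included 1 but not the value of miR-125b. miR-99b, next to miR-125a, had 81.7% in MHCC97H and 74.4% in HepG2, with an odds ratio of 1.54 (0.665 to 3.29). let-7a, over all its hairpins, had 91.6% in MHCC97H and 99.0% in HepG2 (odds ratio 0.105, 0.00264 to 0.600). Of its 1021 3p reads in MHCC97H, 62 were let-7a-2-3p, the strand from the chromosome 11 cluster, and the 1 3p read in HepG2 was not, so this value says little of the hairpin beside MIR125B1. let-7c had 85.8% and let-7e 87.7% in MHCC97H, and neither had a 3p read in HepG2, on 12 and 3 reads. The intervals of their odds ratios included both 1 and the value of miR-125b.

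The proportion of each guide to its neighbours can be compared within libraries, without scaling. There were 0.154 reads of miR-125a-5p per read of miR-99b-5p in MHCC97H (0.134 to 0.176) and 0.207 in HepG2 (0.0702 to 0.507), a ratio of ratios of 0.744 (0.300 to 2.21). Per read of let-7e-5p there were 0.928 in MHCC97H and 2.00 in HepG2, on 6 and 3 HepG2 reads, a ratio of ratios of 0.465 (0.0744 to 2.20). miR-125b-5p had 0.0411 reads per read of miR-100-5p in MHCC97H (0.0375 to 0.0448) and 0.0628 in HepG2 (0.0329 to 0.110), a ratio of ratios of 0.654 (0.371 to 1.26). Per read of miR-99a-5p it had 0.133 in MHCC97H (0.121 to 0.146) and 0.255 in HepG2 (0.127 to 0.476), a ratio of ratios of 0.522 (0.278 to 1.05). All 4 ratios lay below 1 and none of their intervals excluded 1, and they share the reads of 2 guides. In both libraries the guides of the miR-99/100 family were several times as abundant in reads as the miR-125 guide of their cluster.

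**Figure D4:**
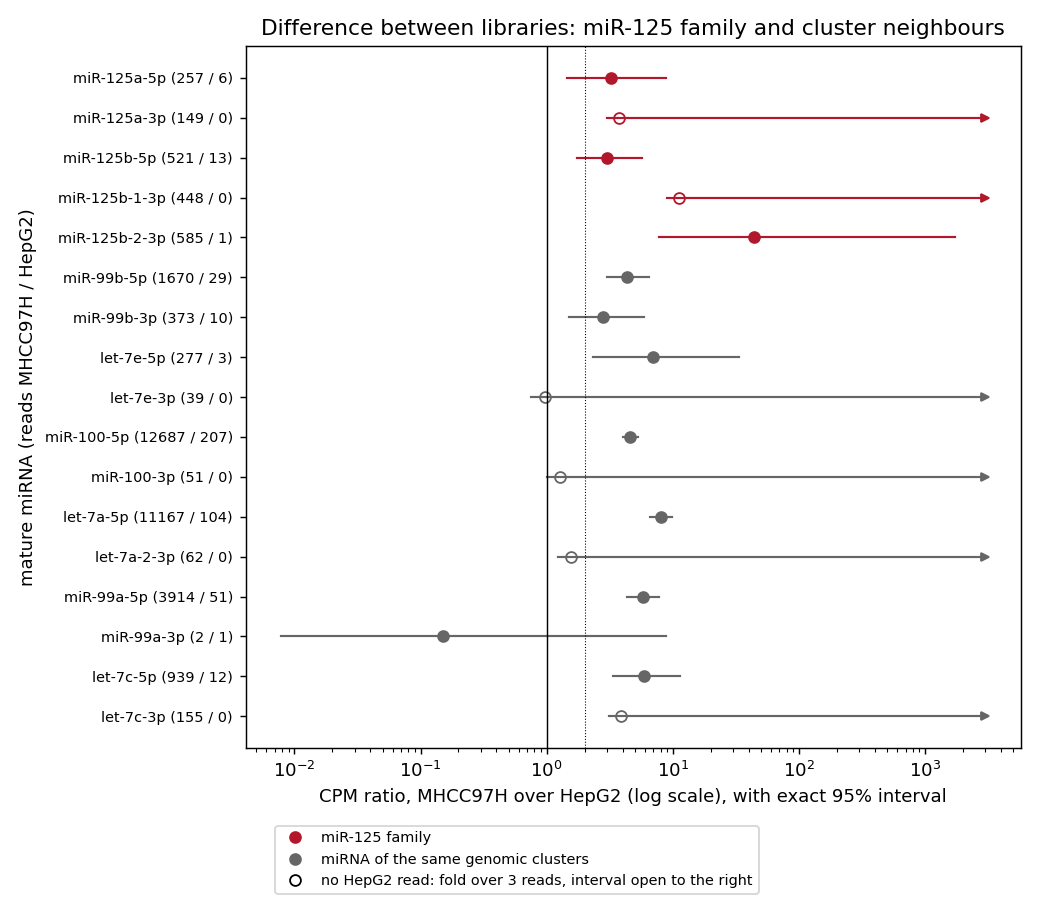
CPM ratio of MHCC97H over HepG2 (log axis) with 95% exact intervals for the 5 members (red) and 12 cluster neighbours (grey); open circles have no HepG2 read and are drawn over the CPM of 3 reads, with intervals open to the right. The 5p strands fall between 3.01 and 8.05, and the miR-125b 3p strands lie furthest right.

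The miRNAs with a ratio most like that of each guide were sought among 133 others averaging 500 CPM or more, over these 2 libraries. The nearest to miR-125a-5p were miR-151a-3p (3.25-fold), miR-185-5p (3.14-fold) and let-7d-5p (3.35-fold). The nearest to miR-125b-5p were miR-148a-5p (3.03-fold), miR-185-5p (3.14-fold) and let-7g-5p (2.85-fold). Their log2 ratios differed from that of the guide by at most 0.07, which is well inside the counting intervals of either guide.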

How the data were processed

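Small RNA was sequenced from exosomes of MHCC97H and HepG2 cells, pelleted by ultracentrifugation, with an NEBNext small RNA kit and a NextSeq 500, per the labels' protocols and design text. The deposited values are raw counts of reads for each mature miRNA, per the file headers. Trimming and alignment tools were cutadapt and Bowtie, per the submitters' processing notes. Not given in the sources used here are their versions and settings, the genome build and the miRNA database release. Its 915 entries carry 793 names. Of 78 repeated names, 30 had unequal counts, and each name was used once at its highest count. CPM was computed from these totals (304457 and 22831 reads). A miRNA with at least 10 CPM in either library was called at 2-fold or more, with 1 CPM added, when the exact interval of the ratio excluded 1. With 1 library per line, edgeR's quasi-likelihood test could not be fitted, so no p-value is given. Odds ratios are conditional estimates with exact intervals. The procedure was tested on simulated counts that held counting error only, with no variation between libraries. Interval coverage was checked there only for miRNAs with HepG2 reads. Named miRNAs were the members, 12 cluster neighbours, miRNAs sharing a seed, the nearest sequences, and the 3 nearest ratios to each guide. Members and lists were chosen with earlier results of these data known, and the strand comparison over all miRNAs was added after values were seen. Alternatives changed the scaling (including edgeR's trimmed mean of M-values), the pseudocount, the treatment of repeated names, the low-level filter and the fold. Coordinates (GENCODE 29) and sequences (RefSeq) only place and describe the miRNAs. Software was R 4.3.3 with edgeR 4.0.16, and Python 3.11.15 with scipy 1.17.1, pandas 2.3.3 and matplotlib 3.10.9.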

Additional observations from a re-analysis of the deposited data

How the results depend on the processing

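No paired analysis was possible because each line had 1 library. Limits are the single library per line, the choice of scaling and the HepG2 depth of 20 family reads. All members kept their direction under the alternatives run. miR-125b-5p was the 1 member that could enter the filter of 10 reads in each library. The members called higher in MHCC97H numbered 5 under edgeR's TMM factors, summed repeats, no filter and a 1.5-fold threshold. They numbered 3, the 3p strands, with median centring, with a reduced total (lacking the 10 most abundant miRNAs of either library), and at 4-fold, and 1 with 10 reads in each library. In an alternative chosen after seeing the data, zero counts were set to 3 reads for the size criterion. The calls then numbered 5 with library totals or TMM factors, 3 with the reduced total, and 2, the miR-125b 3p strands, with centring or at 4-fold, so the miR-125a-3p call in those 2 settings came from the 1 CPM pseudocount. No share of all miRNAs is given for this alternative. The scalings shift every log2 ratio by 0.05 (TMM), 0.99 (centring) and 0.67 (reduced total). With centring the family sum was 3.69-fold higher in MHCC97H, miR-125b-5p 1.51-fold, and, against 3 reads, miR-125a-3p 1.87-fold and miR-125b-1-3p 5.63-fold. With the reduced total these were 4.63-fold for the sum, 2.35-fold for miR-125a-3p and 7.06-fold for miR-125b-1-3p. The 5p strands alone gave 3.07-fold. let-7a-2-3p fell to 0.779 and 0.977 against 3 reads under these 2 scalings.

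Summing the repeated entries gave a 5p share in MHCC97H of 49.98% for miR-125b and 52.2% for the family, 0.249 reads of miR-125a-5p per read of miR-125b-5p in MHCC97H, 0.0813 (MHCC97H) and 0.126 (HepG2) reads of miR-125b-5p per read of miR-100-5p, and 0.264 and 0.5098 per read of miR-99a-5p. These follow from counting miR-125b-5p in both entries. Over all miRNAs, 111 were called higher in MHCC97H and 49 in HepG2, against 62 and 90 with centring, 72 and 73 with the reduced total, and 40 and 29 with 10 reads in each library. By size alone the counts were 281 and 137, against 531 higher in MHCC97H without a filter and 40 and 29 with 10 reads in each library. The MHCC97H share of calls was 69.4%, against 40.8% with centring, 49.7% with the reduced total and 58.0% with 10 reads in each library.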
